A study of Mus musculus and synthetic construct with 3 samples.

Results

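Immunoglobulin transcripts were followed on a Seq-Scope array, a slide of DNA barcodes with known positions that captures the RNA of a tissue section laid on it. The genes were 4 of the 32285 in the deposited matrix, chosen by symbol: Igkc, the constant region of the κ light chain, Igha and Ighm, the heavy-chain constant regions of IgA and IgM, and Jchain, the joining chain of secreted IgA and IgM. Plasma cells secrete antibody made of paired heavy and light chains, and their cytoplasm is filled with these mRNAs. IgA plasma cells that also make the joining chain are abundant in the lamina propria of the gut, and the joining chain lets IgA and IgM be carried across epithelium by the receptor encoded by Pigr. B cells that have not switched class carry IgM on their surface, and antibody-secreting cells are also known from the outer wall of diseased arteries.

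The aortas came from male Apoe-/- mice on a normal diet that carried a subcutaneous minipump for 4 weeks, with AngII at 1000 ng/ml as labelled in the AAA mice and saline in the controls; the labels give an age of 16 weeks. The study's methods give the dose as a rate per body weight and a younger age, so neither the dose unit nor the age is certain. Only AngII-infused mice that developed an aneurysm entered the AAA group, so the contrast joins infusion with aneurysm. Frozen suprarenal abdominal aortas of 3 control and 3 AAA mice were embedded in pairs and cut at 10 µm, and 20 sections lay on lane 2 of the array. Values are exonic unique molecular identifiers (UMIs), each standing for 1 captured RNA, of genes not starting with mt or Gm, and a share is the number of UMIs of a gene per 100000 such UMIs of the same area.

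Beside the section footprints, 4 areas without an outlined aortic section were read the same way: the gaps between sections on lane 2, the tissue before the first section on lane 2, tiles 1 to 15 of lane 1, and tile 16 of lane 1. The labels name no tissue in these areas. Footprints held 118621 to 170292 UMIs per control mouse and 423718 to 957514 per AAA mouse. The aortic smooth muscle list (Acta2, Tagln, Myh11, Myl9, Cnn1) summed to 1378 to 1862 per 100000 UMIs in control mice and 906 to 1128 in AAA mice, and its 5 genes were lower in AAA, while all 7 genes of the macrophage list were higher (edgeR quasi-likelihood test, adjusted p under 0.05 for each).

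The coding ends of the chains are shown because they hold the cysteine codon, in capitals, through which the chains are joined: the heavy-chain tails bond the joining chain or another heavy chain, and the κ chain bonds its heavy chain. They are read 5′ to 3′ from the GENCODE transcripts on GRCm38 (mm10). The Ighm stretch lies at chr12:113420870-113420929 and the Igha stretch at chr12:113258771-113258830, both on the minus strand. The Igkc stretch lies at chr6:70726695-70726754 on the plus strand, the end of the coding part of Igkc.
Ighm: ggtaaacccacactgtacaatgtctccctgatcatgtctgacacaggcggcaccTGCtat
Igha: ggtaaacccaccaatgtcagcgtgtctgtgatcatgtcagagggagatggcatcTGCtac
Igkc: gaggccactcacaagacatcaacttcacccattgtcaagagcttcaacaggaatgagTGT
The Ighm and Igha tails were identical at 41 of 60 positions (68.3%), and only 1 base of each lies in the coding exons of the membrane-bound transcript, so these tails are spelled only by the secreted forms. The deposited counts are per gene and do not separate secreted from membrane-bound forms. Igkc lies inside the long noncoding gene Gm30211 on the same strand (chr6:70719074-70740554). Igkc had 9918 placed exonic UMIs but 0 in the deposited column that counts over whole genes, whereas Igha had 8927 and 8944 in these columns, Jchain 2832 and 2865, and Ighm 279 in both.

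Igkc and Igha were present in every section of both groups at about 1 UMI per 1000, and so they were on lane 1, where no aortic section was outlined. The Igkc share was 82.0, 97.8 and 88.7 per 100000 UMIs in control mice 1 to 3 and 104, 98.2 and 94.7 in AAA mice 1 to 3. The highest control mouse lay above the lowest AAA mouse, so the groups overlapped. Control mice averaged 89.5 ± 7.92 and AAA mice 98.9 ± 4.68 (mean ± SD over 3 mice each). The log2 fold change was 0.16 ± 0.12 (SE), with an adjusted p of 0.688 in the edgeR quasi-likelihood test over 6077 genes. Over the 15 tiles of lane 1, the Igkc share ran from 93.9 to 207 with a median of 108, so all 6 mice lay below that median.

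Igha, the heavy chain of IgA, was no higher in aneurysm. Its share was 95.6, 132 and 105 per 100000 UMIs in control mice and 104, 94.6 and 97.1 in AAA mice. Control mouse 2 stood highest and the other mice lay close together, with the groups overlapping. The log2 fold change was -0.15 ± 0.12 (edgeR, adjusted p = 0.715). The lane 1 tiles ran from 84.3 to 139.2 with a median of 101, a range that contained all 6 mice.

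Jchain behaved like Igkc and Igha. Its share was 22.6, 16.9 and 22.9 per 100000 UMIs in control mice and 25.5, 21.9 and 24.0 in AAA mice, with overlapping groups. The log2 fold change was 0.19 ± 0.18 (edgeR, adjusted p = 0.777). In the 15 lane 1 tiles the share ran from 17.1 to 51.4 with a median of 27.1, above all 6 mice. Summed over the 4 genes, control mice averaged 225 ± 22.5 and AAA mice 228 ± 11.9, a difference of 3.24 that an exact permutation test, two-sided, gave p = 1, where 3 against 3 mice cannot go below 0.1.

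Ighm, the IgM heavy chain, was the rarest of the 4 and the one whose groups did not overlap. Control mice 1 to 3 had 6, 2 and 9 Ighm UMIs, shares of 3.87, 1.69 and 5.29 per 100000. AAA mice 1 to 3 had 85, 26 and 38, shares of 8.88, 6.14 and 5.89. Every AAA mouse lay above every control mouse, though the 95% Clopper-Pearson interval of control mouse 3 (2.42 to 10.0, counting error only) spanned the AAA values. The log2 fold change was 0.92 ± 0.37, and it did not pass the test (edgeR, unadjusted p = 0.0167, adjusted p = 0.275). Of all genes tested, 8.64% had groups that did not overlap with AAA higher and 8.7% with AAA lower, 17.3% in all, against 1 of the 4 immunoglobulin genes. The adjusted threshold was passed in edgeR by 1.15% of genes with AAA higher and 1.18% with AAA lower, 2.34% in all. It was passed by 0 of the 4 immunoglobulin genes. An unadjusted p under 0.05 in edgeR was reached by 1 of the 4, against 669 of the 6077 genes tested. In DESeq2, 83 of 6077 genes and 0 immunoglobulin genes passed, but Ighm was given no adjusted p. The spleen and lymph node stroma lists also did not overlap, nor did those of aortic smooth muscle, fibroblasts, macrophages and exocrine pancreas. The B cell list (7.05 to 15.2 in control and 8.52 to 12.3 in AAA mice) and the T cell list (2.58 to 8.43 and 4.01 to 6.68) overlapped. The spleen list (Spic, Cd5l, Vcam1) summed to 22.6 to 42.2 per 100000 in control and 43.2 to 86.4 in AAA mice. The lymph node stroma list (Ccl21a, Ccl19, Cxcl13, Madcam1) summed to 11.7 to 16.1 and 18.3 to 31.6. In the gaps between sections the spleen and lymph node lists summed to 60.4 and 18.8, above every control mouse and within the AAA range. Vcam1, an adhesion molecule that other cells also make, was higher in AAA (log2 fold change 0.78, edgeR adjusted p = 0.0113), while Cd5l, a macrophage protein, had 1.15 (adjusted p = 0.0583) and no lymph node stroma gene passed the filter on low counts. The part of spleen or lymph node tissue in the Ighm values was not tested. Fewer cells of a type and less RNA per cell cannot be told apart in such sums.

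**Figure D1:**
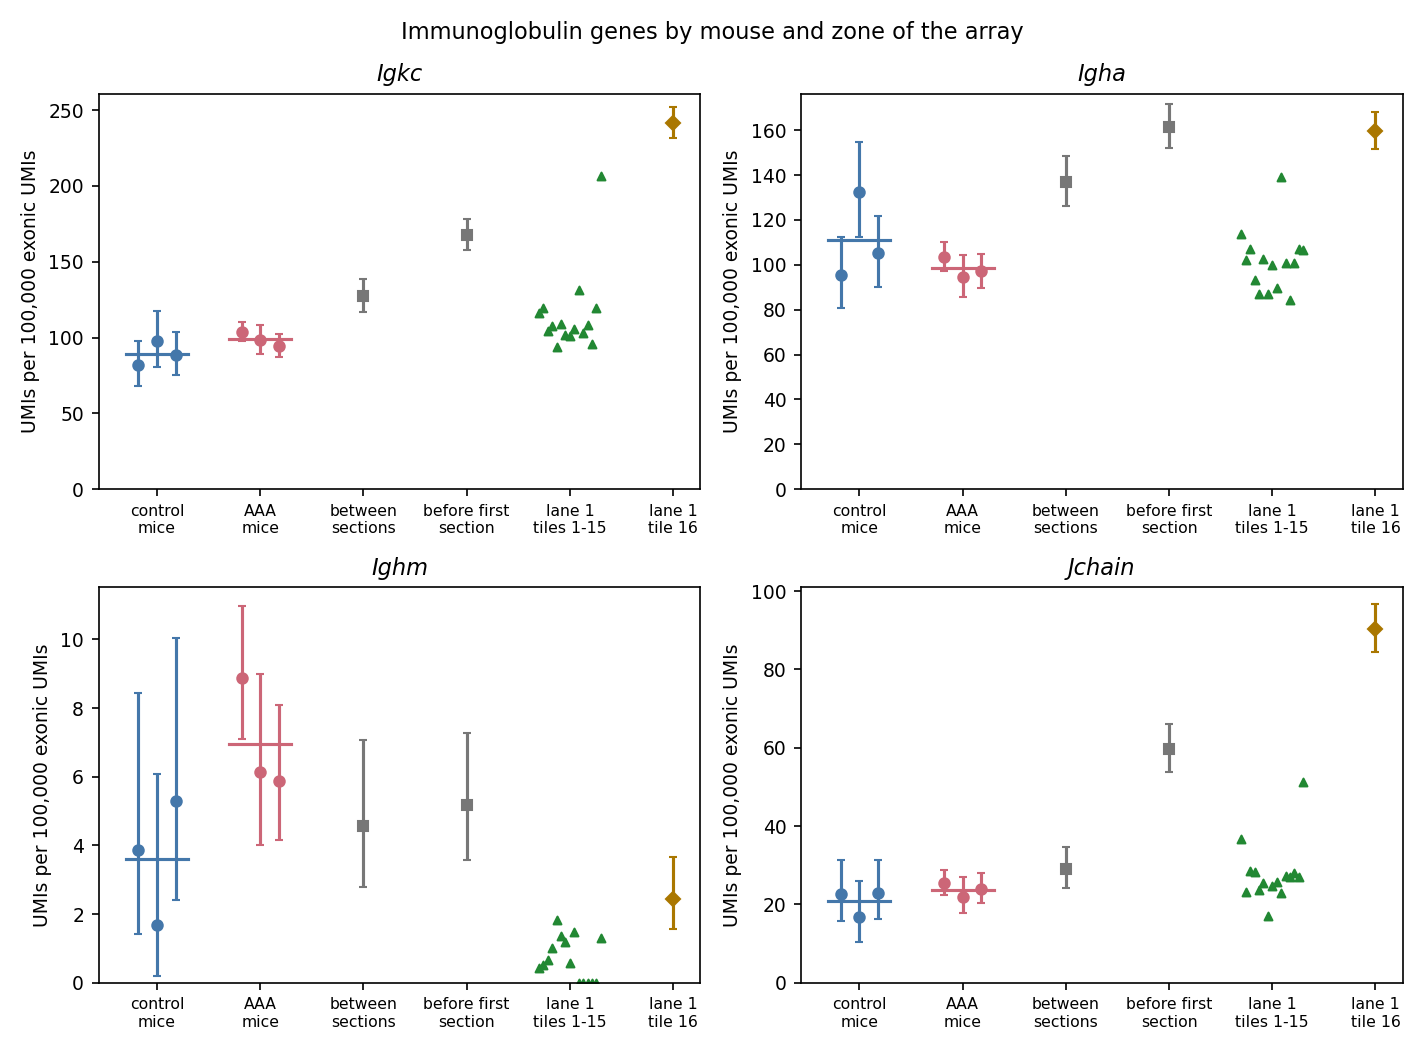
Shares of Igkc, Igha, Ighm and Jchain (UMIs per 100000 exonic UMIs, linear axes from 0) in 3 control mice, 3 AAA mice and 4 areas without an outlined aortic section; circles are mice with their group mean as a line, triangles are the 15 tiles of lane 1, and bars are 95% Clopper-Pearson intervals. Igkc, Igha and Jchain in the mice sit within or below the spread of the lane 1 tiles, while Ighm in 5 of 6 mice sits above the highest lane 1 tile of 1.82.

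Against lane 1, Ighm stood apart from the other members. Its share over tiles 1 to 15 of lane 1 was 0.861 per 100000 (27 UMIs, 95% interval 0.567 to 1.25), with a highest tile of 1.82 and 5 tiles at 0, where 3 counts would be a share of 1.85 to 4.05. All 3 AAA mice and 2 of 3 control mice exceeded the highest tile, whereas 0 of 6 mice did so for Igkc, Igha or Jchain. By section, 10 of 10 AAA sections and 8 of 10 control sections exceeded it, but the control sections rest on 0 to 3 UMIs each. The gaps between sections had an Ighm share of 4.57 (20 UMIs, 2.79 to 7.06). The tissue before the first section had 5.18 (33 UMIs, 3.57 to 7.28). Both lay within the range of the control mice, so Ighm above the lane 1 tiles was also seen on lane 2 outside the aortic outlines. The gaps also held transcripts of the aortic wall. Their aortic smooth muscle, fibroblast and macrophage lists summed to 1278, 1139 and 384 per 100000, against 216, 241 and 65.3 in lane 1 tiles 1 to 15. Gaps began 150 µm from an outline, less than the residual SD of the section edges, 206 µm. The part of aortic RNA in the gap values was not tested. Tile 16 of lane 1 had 2.45 (23 UMIs, 1.55 to 3.67).

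The Ighm UMIs were unevenly spread over the AAA sections. Section shares ran from 3.16 to 12.2 per 100000 with a median of 6.12 in AAA, and from 0 to 9.49 with a median of 3.03 in controls. In AAA mouse 1 the 3 sections held 20, 37 and 28 Ighm UMIs, and in AAA mouse 2 they held 4, 3 and 19. The 4 sections of AAA mouse 3 held 15, 8, 10 and 5. The third section of AAA mouse 2 therefore held most of that mouse's Ighm UMIs. Of the heavy-chain UMIs (Ighm, Igha and the IgG constants), Ighm made up 7.40%, 5.82% and 5.48% in AAA mice, 3.68%, 1.23% and 4.52% in control mice and 0.846% in tiles 1 to 15 of lane 1.

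**Figure D2:**
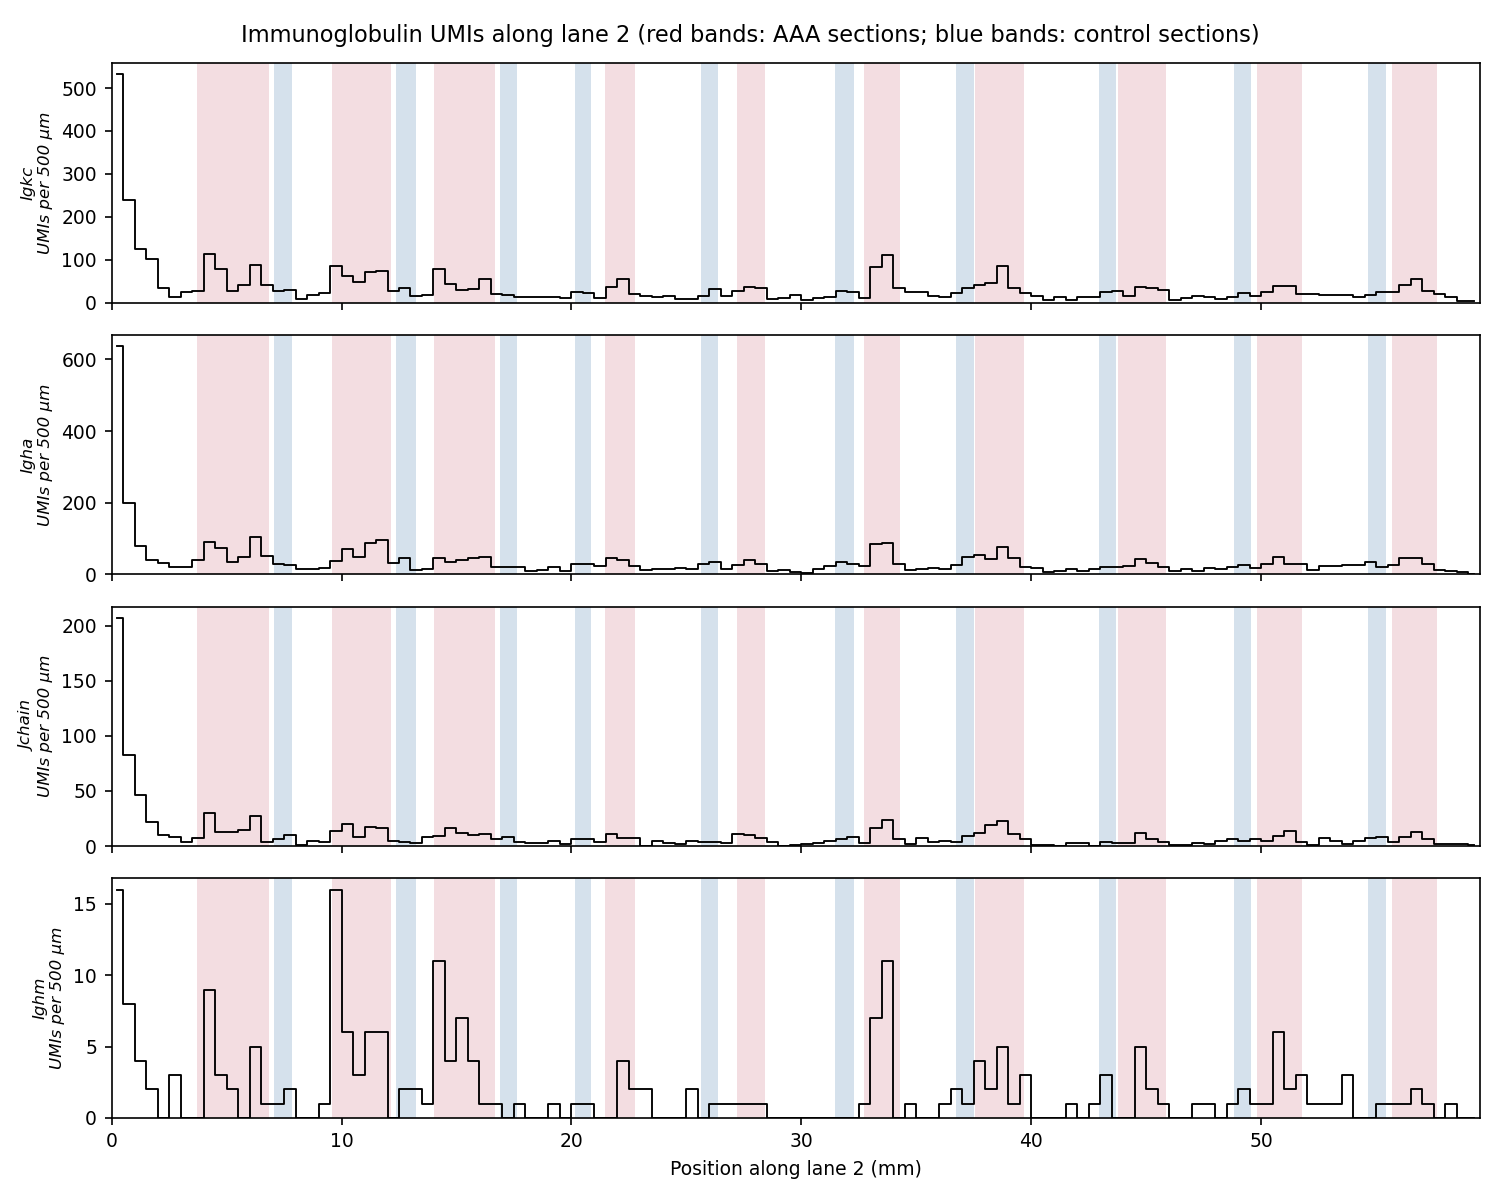
UMIs of Igkc, Igha, Jchain and Ighm per 500 µm along lane 2 (linear axes from 0, each with its own scale), with AAA sections as red bands and control sections as blue bands. Counts are not divided by depth. All 4 genes peak at the lane's start, before the first section, and Ighm also peaks within sections of AAA mice 1 and 2. For Ighm the first 500 µm held 16 of 327865 UMIs, and the bin at 9.75 mm, in AAA mouse 1, held 16 of 36486.

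Of the areas pooled as above, the 2 rich in intestinal transcripts had the highest levels of Igkc, Igha and Jchain. Before the first section of lane 2, the shares were 168 for Igkc (95% interval 158 to 178), 162 for Igha (152 to 172) and 59.7 for Jchain (53.8 to 66.0). In tile 16 of lane 1 they were 242 (232 to 252), 160 (152 to 168) and 90.4 (84.5 to 96.7). The Igkc and Jchain intervals of these areas lay above those of all AAA sections together, 95.5 to 104 and 22.2 to 26.5. These areas are 1 each, so the intervals cover counting error only. Within lane 1 the next tile, 15, had an Igkc share of 207 (176 to 242), above that before the first section, and a Jchain share of 51.4 (36.5 to 70.2).

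Goblet and colon transcripts were more frequent in both areas than in the aortic footprints, though they were not the only transcripts there. Muc2, the main mucin of goblet cells, had a share of 305 before the first section and 489 in tile 16, and Ang4, an antimicrobial protein of the gut, had 79.3 and 218. The intestinal epithelium list of 15 genes summed to 907.2 and 1245 per 100000, against 367.9 to 406 in the AAA mice. The aortic smooth muscle list, whose genes visceral muscle also uses, summed to 1756 before the first section and 917 in tile 16. Control mice had 1378 to 1862 and AAA mice 906 to 1128. The liver list summed to 1322 and 546.3, below its 1794 to 2306 in control and 1800 to 1939 in AAA mice. The visceral smooth muscle list (Actg2, Des, Synm, Smtn) summed to 310 and 212, against 60.2 to 75.6 in the AAA mice. Pigr, the epithelial receptor for joining-chain antibody, reached 105 in tile 16 but 60.5 before the first section, close to its 62.0 in the gaps.

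Transcripts of distant organs also ran through the aortic footprints at a nearly even level. Alb, the liver's albumin, had a share of 830 to 1116 in control mice and 847 to 899 in AAA mice, and of 957 in the gaps and 642 to 830 over the 15 lane 1 tiles. The Igkc to Alb ratio was 0.0876 to 0.107 in control mice, 0.112 to 0.116 in AAA mice and 0.151 in tiles 1 to 15 of lane 1. It was 0.270 before the first section and 0.961 in tile 16, where Alb was also lower, at 622 and 252. The part of such array-wide RNA in the aortic immunoglobulin counts was not tested. In the gaps Igkc was at 127 (557 of 437215 UMIs) and Igha at 137 (126 to 148), above the AAA sections together at 99.8 and 99.7 (95.4 to 104).

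The gut-rich areas also differed in light and joining chains. Iglc3, a λ light-chain constant gene, had a share of 69.4 before the first section and 80.1 in tile 16, against 10.6 in the control and 13.1 in the AAA sections. Per Igkc UMI there were 0.355 Jchain UMIs before the first section and 0.374 in tile 16. The aortic values were 0.172 to 0.276 in control mice and 0.224 to 0.254 in AAA mice. The 4 IgG constant genes (Ighg1, Ighg2b, Ighg2c, Ighg3) summed to 5.41 per 100000 in the control sections and 5.97 in the AAA sections. They summed to 5.65 before the first section, 2.45 in tiles 1 to 15 and 2.13 in tile 16 of lane 1. In the edgeR fit 3 of the other 9 constant genes passed the filter on low counts and 0 were called: Ighg2c had a log2 fold change of -0.08 (adjusted p = 0.979), Iglc1 of -0.22 (adjusted p = 0.919) and Iglc3 of 0.31 (adjusted p = 0.706). Variable genes gave little: 81 of 348 had any exonic UMI and together they held 152.

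Genes of antibody-secreting cells and B cells were sparse on the aorta. The plasma cell list of 14 genes summed to 67.5 to 73.3 per 100000 in control mice and 70.3 to 79.1 in AAA mice, near its 74.1 in tiles 1 to 15 of lane 1. Most of these UMIs were of Ssr4, Xbp1, Sdc1 and Sec11c, secretory and surface genes that many other cells use. Of the list, 5 genes could be tested and 0 were called, Sdc1 having the smallest adjusted p at 0.122 with a log2 fold change of 0.70. Mzb1, a chaperone of antibody assembly, had 3, 4 and 6 UMIs in control mice and 23, 12 and 23 in AAA mice (log2 fold change -0.02, adjusted p = 0.995). Tnfrsf17, the plasma cell receptor BCMA, had 0 UMIs in the control sections and 3, 1 and 0 in the AAA mice. The B cell list of 13 genes summed to 7.05 to 15.2 in control and 8.52 to 12.3 in AAA mice, against 2.61 in tiles 1 to 15 of lane 1, and 0 of its genes passed the filter on low counts. The T cell list summed to 2.58 to 8.43 and 4.01 to 6.68, against 1.24 in those tiles. In the gaps between sections the B and T cell lists summed to 9.15 and 5.03, within the ranges of the control and AAA mice. Before the first section they summed to 5.34 and 1.57.

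At the scale of cells, the aortic immunoglobulin UMIs lay mostly one by one, with few dense spots. The array was divided into hexagons with 12 µm sides, and a hexagon with 3 or more UMIs of the 4 genes was called dense. Control mice had 0 dense hexagons, which allows shares of the hexagons with any member UMI of up to 0.987%, 1.07% and 0.820%. AAA mice 1 to 3 had 23 of 2093 (1.10%), 9 of 847 (1.06%) and 4 of 1375 (0.291%), and tiles 1 to 15 of lane 1 had 11 of 7027 (0.157%). Before the first section 244 of 1507 were dense (16.2%), and in tile 16 of lane 1 it was 414 of 2417 (17.1%). Capture depth moved with these shares: the mean was 13.9 to 16.7 UMIs per hexagon in control mice, 21.0 to 28.9 in AAA mice, 44.8 before the first section and 68.7 in tile 16, and its part in them was not tested.

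**Figure D3:**
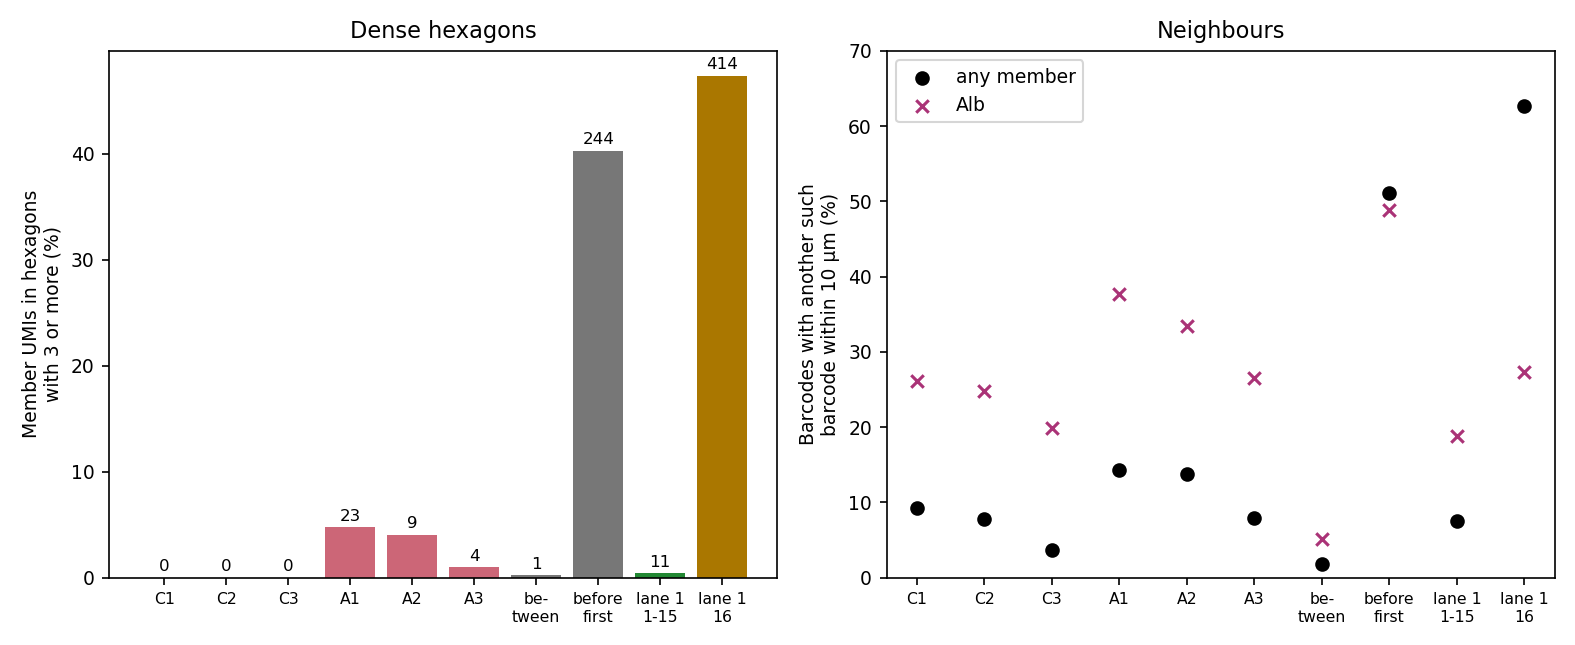
Left, percent of the UMIs of the 4 genes that lie in hexagons with 3 or more of them, by mouse and area, with the number of such hexagons above each bar; right, percent of barcodes holding a member (circles) or Alb (crosses) with another such barcode within 10 µm. Dense hexagons held 40.3% of member UMIs before the first section and 47.4% in tile 16 of lane 1, but at most 4.79% in any mouse.

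Neighboring barcodes also set the gut-rich areas above the mice, but ordered the rest differently. The share of member barcodes with another member barcode within 10 µm was 9.21%, 7.80% and 3.71% in control mice and 14.3%, 13.8% and 7.98% in AAA mice. It was 1.86% in the gaps, 7.49% in tiles 1 to 15 of lane 1, 51.1% before the first section and 62.6% in tile 16. Groups overlapped, since AAA mouse 3 lay below control mouse 1, and all control mice lay above the gaps. For Alb it was 19.9% to 26.2% in control and 26.6% to 37.7% in AAA mice, but 48.9% before the first section and 27.3% in tile 16. Such shares rise with the number of barcodes, and Alb had more than the members in every mouse and area except tile 16, where it had 2358 against 4349. Before the first section the order of members and Alb depended on the distance, with 75.3% and 77.4% at 20 µm.

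The largest dense patch within the aortic outlines was in that of the second section of AAA mouse 1. It covered 5 adjoining dense hexagons with 42 member UMIs, lay 96.3 µm from the section's starting edge and reached the lower edge of the array. That distance is less than the residual SD of the section edges, 206 µm, so its place inside the section is not certain. Within 50 µm of its center, 49 of 1062 UMIs (4.61%) were of the 4 genes: 29 Igkc, 12 Ighm, 8 Jchain and 0 Igha. In this mouse as a whole Igkc and Igha were nearly equal, at 995 and 992 UMIs. At 1062 UMIs, 3 counts would be a share of 282 per 100000, so an Igha share at the level of the whole mouse, 104, was not detectable there. The same circle held 3 Ighg2b UMIs, 2 of Mzb1, 1 of Xbp1 and 1 of Sdc1. Chains of these kinds build the IgM pentamer, but the counts do not separate secreted from membrane-bound Ighm.

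A hexagon with IgG lay beside that patch. At 90.0 µm from the lower edge of the array it held 36 UMIs, of which 3 were Igkc, 1 Ighm, 1 Jchain and 6 Ighg2c, the heavy chain of IgG2c. Ighg2c had 40 UMIs in all of AAA mouse 1 and 0 within 50 µm of the patch center. The heavy chains of the 2 spots therefore differed in these few UMIs, mostly µ in one and mostly γ2c in the other. Without the 50 µm circle the Ighm share of AAA mouse 1 was 7.63 rather than 8.88, still above every control mouse, and the log2 fold change of Ighm was 0.81 (edgeR, adjusted p = 0.379).

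**Figure D4:**
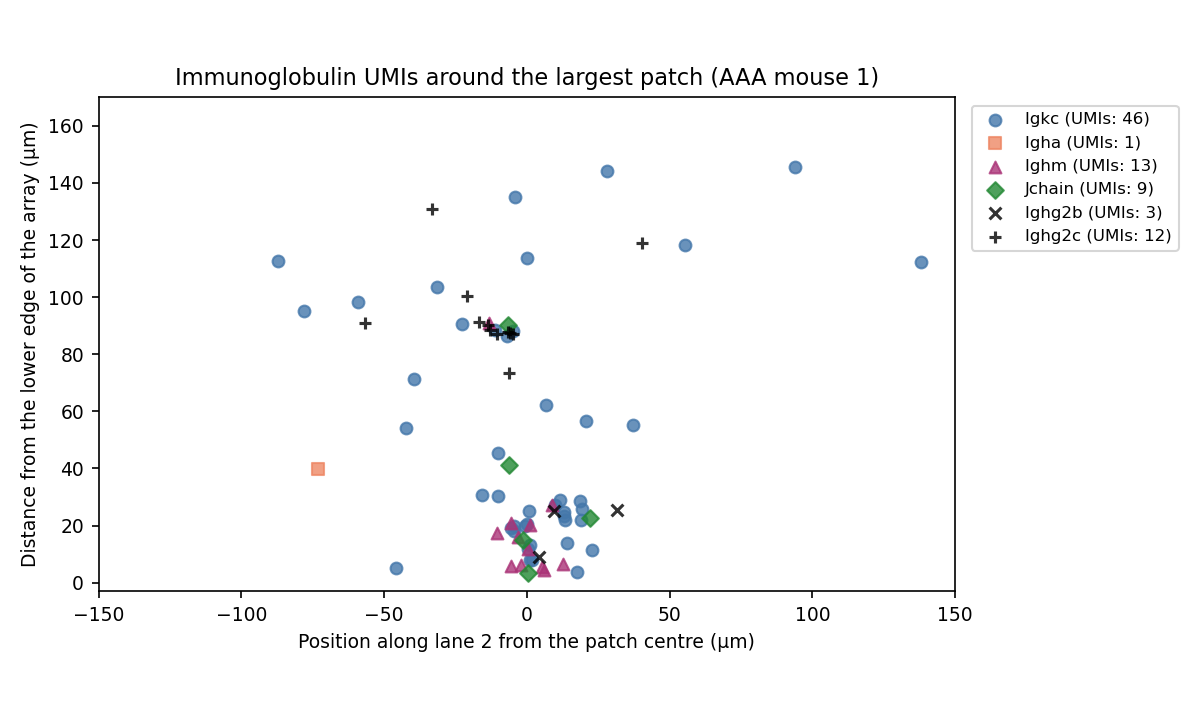
Positions of Igkc, Igha, Ighm, Jchain, Ighg2b and Ighg2c UMIs within 150 µm of the center of the largest patch within the aortic outlines, placed in AAA mouse 1. Axes are µm along lane 2 from the patch center and µm from the lower edge of the array. Igkc, Ighm and Jchain crowd at the array's edge, and Ighg2c lies in a separate spot about 90.0 µm from the edge.

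Of the 29 dense patches in AAA mice, 16 held both Igkc and Igha, 10 held Igkc without Igha and 3 held no Igkc, most of them on 3 or 4 member UMIs. In the first section of AAA mouse 1, 1 hexagon held 13 member UMIs among 273: 8 Igkc, 3 Igha and 2 Jchain. In the third section of AAA mouse 2, 1 hexagon of 49 UMIs held 6 Igkc and 5 Igha, and 3 adjoining hexagons elsewhere on the same section held 8 Igkc, 1 Igha, 1 Ighm and 1 Jchain among 446. That section held 7 of the 9 dense hexagons of the mouse, and the second section held 0. Of the 36 dense hexagons in AAA mice, 18 had at least 75 genes. The study used that minimum too, but states far more such hexagons than the exonic counts leave, so its hexagons or counts may have been built differently.

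The dense hexagons of the AAA sections held wall transcripts, and the liver list had as many UMIs there as the fibroblast list, 62 each. Their member UMIs (111, 38 and 14 in AAA mice 1 to 3), for which they were chosen, stay in the total and lower every other share. Among their 4321 UMIs the fibroblast list (Col1a1, Col1a2, Col3a1, Dcn, Lum) had a share of 1435 per 100000 (1102 to 1836), against 1325 over all AAA footprints. The aortic smooth muscle list had 625 (412 to 907.8) against 995, the liver list 1435 (1102 to 1836) against 1868, and the macrophage list 370 (212 to 601) against 444. AAA mice 1 and 2, with 23 and 9 of these hexagons, had smooth muscle list shares of 944 and 906 over their footprints. Whether smooth muscle or liver transcripts were fewer in these hexagons was not tested. The intestinal epithelium list had 278 (144 to 485) against 397, and the colon list had 2 UMIs. Plasma cell genes gave 4 UMIs: 2 of Sdc1, 1 of Mzb1 and 1 of Derl3. B cell genes gave 0, a limit of 3 counts in 4321. Before the first section, by contrast, the dense hexagons held the intestinal epithelium list at 1188 (1126 to 1252) and Pigr at 77.5 (62.2 to 95.3), with fibroblast genes at 510 (470 to 553).

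Patterns over the 32 tiles of both lanes were compared between genes. By Spearman correlation of depth-scaled counts over 4613 genes, Igkc was most like Rab25 (0.74), Spink4 (0.63), Lypd8 (0.61), Tspan1 (0.61) and Cldn2 (0.61). Spink4 and Lypd8 are genes of the intestinal epithelium. Jchain was most like Cdhr5 (0.62), Muc13 (0.62), Edem2 (0.59), Lad1 (0.56) and Itih5 (0.56), with Cdhr5 and Muc13 belonging to the epithelial brush border and surface. Igha was most like Ugt2b34 (0.72), Slc35b1 (0.71), Adk (0.69), Atpif1 (0.68) and Ndufa7 (0.68). Ighm was most like Slc1a5 (0.90), Aqp1 (0.89), Lamb2 (0.89), Eif4ebp1 (0.88) and Plaat3 (0.88), and its correlation with Igkc was -0.15. The median correlation over all these genes was 0.40 for Ighm and 0.20 for Igha, against -0.0044 for Igkc and -0.0051 for Jchain, so the values of Ighm and Igha stand on a raised background. The tiles share libraries, lane and depth, so these values are descriptions.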

How the data were processed

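Aortic sections on Seq-Scope arrays were sequenced as 2 libraries and the authors deposited a single matrix of raw UMI counts (STARsolo 2.7.5c, mm10, per the submitters' processing notes) covering every section, with columns of counts that the file does not name. The first was read as exonic and the second as whole-gene counts, from the order in which STARsolo reports them and from their values, and all shares rest on that reading. The deposited counts are not normalized, and the velocity columns were not used. The members and marker lists were chosen with earlier results of these data known. The labels do not assign sections to mice: barcode positions were converted to µm at 26.7 position units per µm (fitted 26.6) and placed against the section outlines of the study's supplement, with 99.8% of 4975 hexagons of 75 or more genes inside an outline, against at most 50.7% in the opposite order. Section edges are therefore approximate (residual SD 206 µm). Exonic UMIs were summed per mouse over whole footprints without the 8551 genes starting with mt or Gm, which the study removed. Gaps, the tissue before the first section and lane 1 were at least 150 µm from an outline. A tile is 1 of 16 imaging fields along a lane. No doublet caller applies to positions.

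Mice were compared with edgeR 4.0.16 (quasi-likelihood, TMM, filterByExpr, Benjamini-Hochberg over all 6077 tested genes) in R 4.3.3 and, for the summed share, an exact permutation test. Sections of a mouse were not treated as replicates. In simulated counts of 6077 genes at these depths, 36 of 50 genes changed 3-fold and 15 of 50 changed 2-fold were recovered, with 13 false calls. The simulation gave every gene the same set dispersion, not estimated from these mice. Changed genes were drawn over all count levels, so the rates are not specific to the counts of the 4 members. Intervals are 95% Clopper-Pearson and limits for 0 use 3 counts; both cover counting error only. Named genes are the 4 members, other constant genes, the list genes with the highest counts and, by tile, the 5 genes most like each member among those with at least 300 UMIs. The 2 hexagons, patches (dense hexagons with centers within 45 µm) and B, T and plasma cell genes with few UMIs that are named singly were chosen after their values were seen. Sequences come from GENCODE vM21. Alternatives were hexagons of 75 or more genes, whole-gene counts, mt and Gm genes kept, wider footprints, library size alone, no low-count filter, DESeq2 1.42.0, a block, other distances and gaps, leaving out each mouse, and, chosen after seeing the data, leaving out the largest patch.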

Additional observations from a re-analysis of the deposited data

How the results depend on the processing

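Under all 15 alternatives 0 of the 4 immunoglobulin genes passed the adjusted threshold. Igkc stayed higher in AAA in 14 of 14 alternatives that gave a value (log2 fold change 0.12 to 0.29), Jchain in 15 of 15 (0.08 to 0.50) and Ighm in 14 of 14 (0.65 to 1.33, adjusted p 0.126 to 0.633; DESeq2 gave no adjusted p for it). The lowest Ighm values came without control mouse 2 (0.65) and without AAA mouse 1 (0.67). Ighm did not pass the filter in hexagons of 75 or more genes, and the whole-gene column holds no Igkc, so no value could be given. Igha, lower in 14 of 15, was 0.056 in hexagons of 75 or more genes. The difference in summed share turned negative without control mouse 1 or AAA mouse 1, the range over left-out mice being -7.18 to 15.1; the cause was not tested. All genes called numbered 142, against 63 in hexagons of 75 or more genes (1227 tested), 83 with DESeq2 and 63 to 148 over left-out mice. The aortas were embedded in pairs, but mice of the same pair number shared little deviation from their group means (correlations 0.0233, 0.00983 and 0.0550). With the pair number as a replicate block, 166 genes and 0 members were called in edgeR (Ighm 0.88, adjusted p = 0.295).

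By the whole-gene column, without Igkc, the summed share was 55.2 in control and 57.5 in AAA sections, 108 between sections, 147 before the first section, 111 in tiles 1 to 15 and 216 in tile 16 of lane 1. With 5 µm in place of 10 µm, member barcodes with a neighbor were 4.06% in AAA mice, 2.07% in control mice, 0.621% between sections, 24.9% before the first section, 1.94% in tiles 1 to 15 and 38.0% in tile 16. With 20 µm they were 31.6%, 22.2%, 6.06%, 75.3%, 21.0% and 83.8%. Counts limit Ighm most, with 17 UMIs over the 3 control mice.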
